A study of Mus musculus with 2 samples.

Results

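Recombination-phase germ cells were fetal oocytes chosen for transcripts of Dmc1, Prdm9 and Spo11, genes of the machinery that opens meiotic recombination. These oocytes held few transcripts of the entry factor Stra8. They were taken by rule from single cell RNA sequencing of E15.5 mouse ovaries, and 4673 of the 25395 cells kept from both libraries met it (18617 cells were germ cells). A kept cell had 3000 or more unique molecular identifiers (UMIs, each counted once per captured transcript) and less than 10% of them from mitochondrial genes. A germ cell had Dazl, Ddx4, Smc1b, Sycp1, Sycp3 and Stra8 summing to 20 or more UMIs per 10000. Among germ cells with Stra8 below 2 per 10000, those with Dmc1, Prdm9 and Spo11 summing to 5 or more were taken, after the 3000 cells with the highest sum of Ccnb3, Ribc1, Morn5 and Spa17 had been left out as the most advanced. Measured values therefore chose these cells, and levels of all genes in them are given as a description, with no test.

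The KO library came from 2 embryos homozygous for a deletion of the glucocorticoid receptor (GR, encoded by Nr3c1), pooled before capture, and the WT library from 4 wild-type embryos. The deletion arose from an Nr3c1 allele with a floxed exon 3 (Nr3c1tm1.1Jda) recombined by a ubiquitous β-actin Cre (Tmem163Tg(ACTB-cre)2Mrt), so it was constitutive and present in germ cells and soma alike. Both groups carried a Pou5f1-GFP transgene (Tg(Pou5f1-EGFP)2Mnn), on which germ cells were sorted before being mixed with ovarian somatic cells at 60 to 40. Each genotype was 1 library, so no difference between KO and WT has a replicate check, and genotype cannot be told apart from embryo pool, sort or capture. All intervals below are exact 95% intervals and cover counting error only.

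In meiotic prophase, SPO11 and its partners cut both strands of DNA at sites that the histone methyltransferase PRDM9 has marked. The ends are resected and coated by recombinases such as DMC1, which search the homologous chromosome for a matching sequence. Repair takes place along the chromosome axis while the synaptonemal complex closes between homologs, and in the mouse fetal ovary these steps begin soon after STRA8 has committed germ cells to meiosis.

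STRA8 is a transcription factor for which the sequence CNCCTCAG is known as a binding motif. The 250 bases before the start site of 4 of the 5 genes listed as markers of the phase are shown here (RefSeq, build GRCm38.p6). They are shown because these genes name the phase (Prdm9 and Dmc1 also chose its cells) and Stra8 marks the cells before it. Spo11 is named only. Capital letters mark a match to the motif on either strand, and all other bases are in lower case.
Prdm9 (chr17:15564355-15564604, minus strand): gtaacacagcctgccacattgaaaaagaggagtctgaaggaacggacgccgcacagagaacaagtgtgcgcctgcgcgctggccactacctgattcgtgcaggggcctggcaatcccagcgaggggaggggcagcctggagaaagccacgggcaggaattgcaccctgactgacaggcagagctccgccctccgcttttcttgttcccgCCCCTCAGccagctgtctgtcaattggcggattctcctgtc
Dmc1 (chr15:79605110-79605359, minus strand): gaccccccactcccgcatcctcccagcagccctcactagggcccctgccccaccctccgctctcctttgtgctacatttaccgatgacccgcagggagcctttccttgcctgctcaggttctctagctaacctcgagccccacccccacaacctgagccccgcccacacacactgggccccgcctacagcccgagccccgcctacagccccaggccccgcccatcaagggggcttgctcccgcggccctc
Zcwpw1 (chr5:137787081-137787330, plus strand): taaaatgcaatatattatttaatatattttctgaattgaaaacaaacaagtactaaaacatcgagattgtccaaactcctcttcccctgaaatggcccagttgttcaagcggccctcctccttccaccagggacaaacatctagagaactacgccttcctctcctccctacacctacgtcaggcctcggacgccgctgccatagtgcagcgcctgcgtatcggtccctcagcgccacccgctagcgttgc
Tex101 (chr7:24672051-24672300, minus strand): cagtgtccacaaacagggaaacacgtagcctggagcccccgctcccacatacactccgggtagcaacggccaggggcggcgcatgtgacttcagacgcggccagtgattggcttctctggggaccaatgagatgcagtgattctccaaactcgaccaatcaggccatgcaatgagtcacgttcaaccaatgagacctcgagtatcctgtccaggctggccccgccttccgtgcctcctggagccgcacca

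Prdm9 held 1 match, CCCCTCAG, from 41 to 34 bases before its start site. The other 3 windows held none, which says only that these letters are not in those windows. Among all windows of this length, 2101 of 32536 (6.46%) held the motif. Of the 34 genes listed for break formation, hotspot choice and strand exchange, 29 had an entry and 2 held it, Prdm9 among them. The Tex101 start site used by RefSeq lay inside the gene as GENCODE draws it (chromosome 7, 24668007 to 24676675). That of Zcwpw1 lay before the GENCODE start of its gene (chromosome 5, 137787798). Prdm9 and Zcwpw1 had 2 RefSeq start sites each, and the window shown is that of the site furthest upstream.

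The 2797 KO cells made up 24.9% (24.1 to 25.7) of 11253 KO germ cells, and the 1876 WT cells 25.5% (24.5 to 26.5) of 7364 WT germ cells. The shares therefore overlapped within counting error. Other germ cells did not divide alike. Germ cells with Stra8 of 2 or more per 10000 (Stra8 cells below) were 27.9% in KO and 18.5% in WT, the most advanced cells 16.5% and 15.49%, and the remaining germ cells, with Stra8 below 2 and the 3 recombination genes below 5 per 10000, 30.7% and 40.5%. Recombination-phase cells held a median of 11102 UMIs and 3183 genes in KO and 16734 UMIs and 3912 genes in WT. Mitochondrial UMIs were at a median of 3.45% and 4.18%. In total these cells carried 33004497 UMIs in KO and 33006683 in WT, so summed levels in both libraries rested on nearly the same number of transcripts. Of all cell barcodes 75 occurred in both libraries, and 3 of them belonged to cells of the phase in both.

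The 3 genes of the rule were not captured evenly. Prdm9 contributed 48.7% of their summed UMIs in KO and 47.3% in WT, Dmc1 34.9% and 32.5%, and Spo11 16.4% and 20.2%. Their sum per cell had a median of 7.04 per 10000 in KO and 6.65 in WT, and 95% of cells were below 11.7 and 10.9. All 3 transcripts were found together in 63.0% (61.2 to 64.8) of KO cells and 80.4% (78.5 to 82.2) of WT cells. Dmc1 was found in 93.5% of KO and 96.3% of WT cells and Prdm9 in 95.8% and 96.2%, whereas Spo11 was found in 71.2% and 86.5%. With every cell thinned to 3000 UMIs, Spo11 was found in 30.9% (29.2 to 32.6) of KO and 35.0% (32.8 to 37.2) of WT cells, a smaller gap between the libraries at equal depth. In cells that were not germ cells, Spo11 was found in 2.42% of KO and 4.28% of WT cells before thinning, at median depths of 7826.5 and 11884 UMIs, and in 1.08% and 1.16% after it.

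The threshold cut through a gradient. Cells just inside it, with a sum of 5 to under 6, had 1340 UMIs of Zcwpw1 per 1000000 in KO and 1341 in WT, and cells just outside, with 4 to under 5, had 1240 and 1166. Meiob, whose product coats single-stranded DNA, was at 251 and 255 inside and 228 and 210 outside. At the advanced edge, the last cell left out and the first cell taken both had a sum of 8.60 per 10000.

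Zcwpw1 and Tex101 were listed as markers of the phase and were not part of the rule. Zcwpw1, a reader of the histone marks that PRDM9 writes, was at 1474 UMIs per 1000000 (CPM, summed over the cells of a group) in KO and 1451 in WT recombination-phase cells. It was at 1148 and 1038 in Stra8 cells, 939 and 791 in the most advanced cells and 968 and 920 in the remaining germ cells. Tex101, a surface glycoprotein of germ cells, was at 1395 and 1381 in the phase, against 1181 and 1135, 950 and 676, and 957 and 890 in the same order. Both genes were highest in the phase in each library, and their neighbours in that order were the Stra8 cells. Compared with all other germ cells together, the log2 ratio of Zcwpw1 was 0.50 (0.48 to 0.51) in KO and 0.64 (0.62 to 0.65) in WT, and that of Tex101 0.40 (0.39 to 0.42) and 0.57 (0.56 to 0.59). Cells that were not germ cells had 45.1 and 34.1 CPM of Zcwpw1. Dazl, an RNA-binding protein of germ cells, was at 788 and 948 CPM against 23.8 and 21.4 in cells that were not germ cells. Ddx4, a germ cell helicase, was at 231 and 216 CPM against 8.57 and 6.26. Both belong to the sum that defined germ cells, so these values do not check that label.

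**Figure D1:**
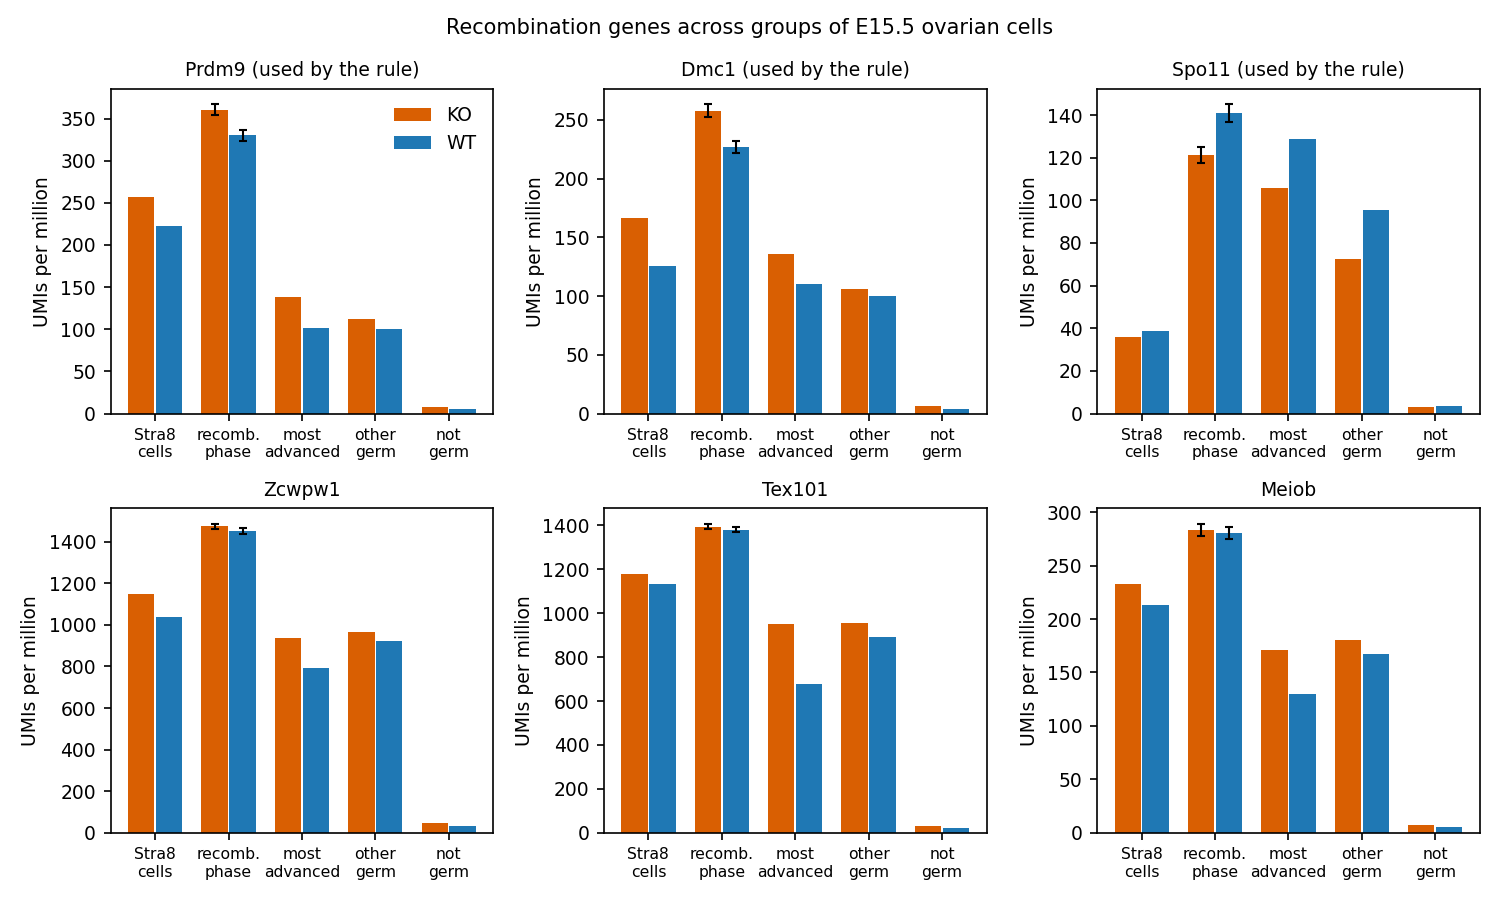
UMIs per 1000000 of 6 recombination and marker genes in 5 groups of cells of the KO library (orange) and the WT library (blue). Each bar is the sum over the cells of 1 library and the error bar, drawn for the recombination phase, is the exact 95% interval for counts. Prdm9, Dmc1, Zcwpw1, Tex101 and Meiob stand highest in the recombination phase, while Spo11 is nearly as high in the most advanced cells.

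Prdm9, Dmc1 and Spo11 had different courses on either side of the phase. In the phase, the Prdm9 level was 360 CPM in KO, with bounds of 354 and 367, and 330 in WT, with bounds of 324 and 336. It was 256 and 222 in Stra8 cells, and 139 and 101 in the most advanced cells. The Dmc1 level was 258 CPM for KO (bounds 252, 263) and 227 for WT (bounds 222, 232), compared with 166 and 125 in Stra8 cells and 136 and 111 in the most advanced. The Spo11 level was 121 CPM for KO (bounds 118, 125) and 141 for WT (bounds 137, 145), compared with 35.9 and 38.6 in Stra8 cells and 106 and 129 in the most advanced. Prdm9 was thus higher before the phase than after it, Dmc1 was at similar levels on both sides, and Spo11 was lower before the phase than after it. The height of all 3 in the phase itself was set by the rule. Stra8 itself was at 43.3 and 36.2 CPM in the phase, 1016 and 1011 in the cells chosen for it, and 17.2 and 9.45 in the most advanced.

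**Figure D2:**
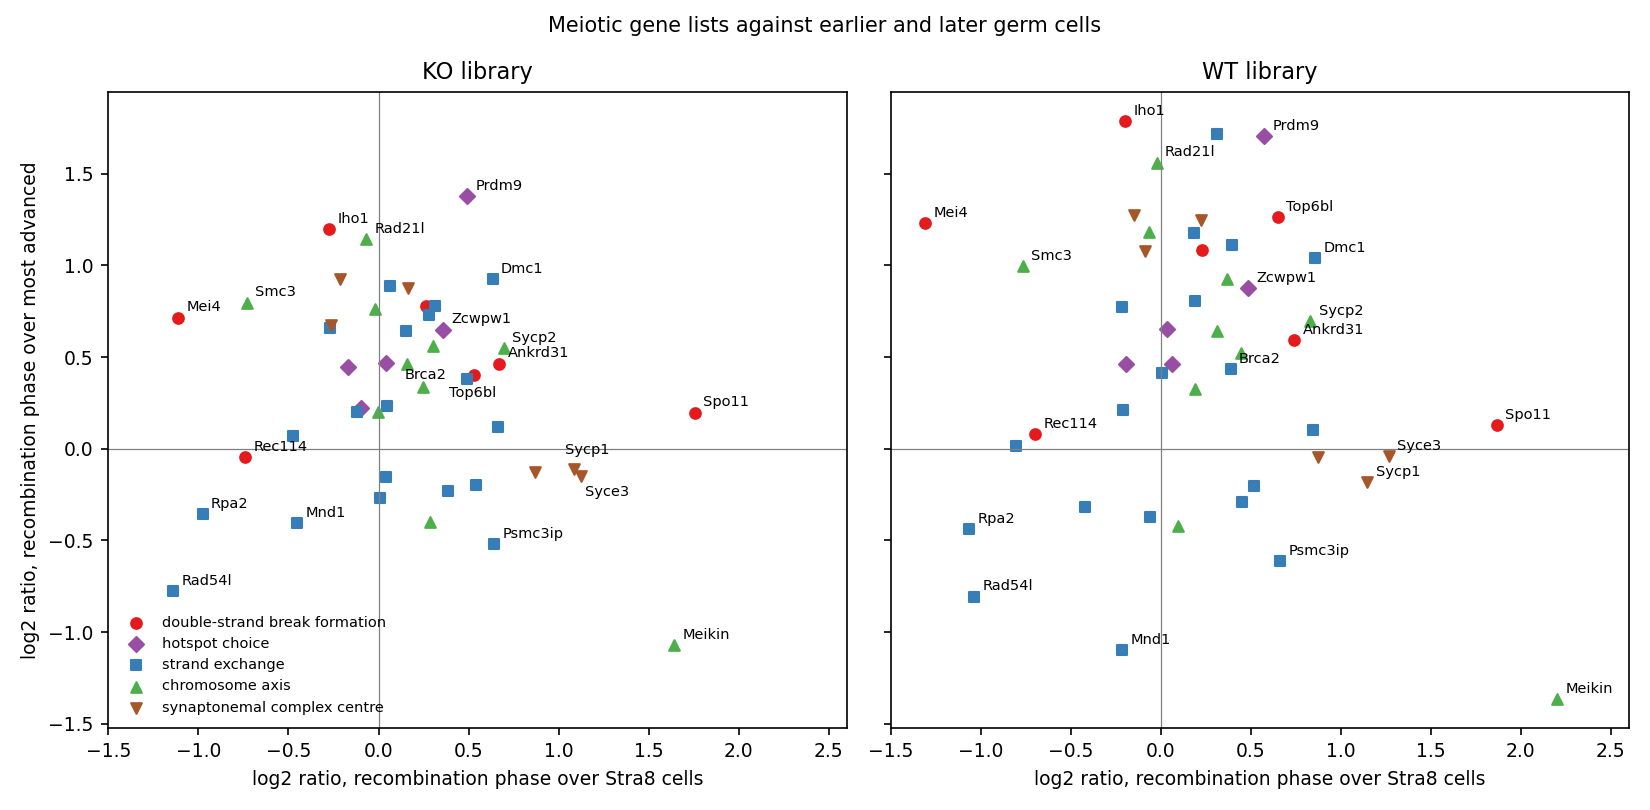
Log2 ratio of UMIs per 1000000 in recombination-phase cells over Stra8 cells (horizontal axis) and over the most advanced cells (vertical axis), for genes of 5 meiotic lists with 100 or more UMIs in the phase, KO on the left and WT on the right. Each point is 1 gene in 1 library. Genes at the upper right, such as Prdm9, Dmc1 and Ankrd31, are highest in the phase. Genes at the upper left, such as Mei4 and Smc3, are highest in Stra8 cells. Genes at the lower right, such as Psmc3ip and Meikin, are highest in the most advanced cells.

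Counts of genes against the neighbouring groups used a ratio of 1.5-fold or more in the same direction in both libraries, among genes with 100 or more UMIs, a limit of size and not a test. Against Stra8 cells, 1316 of 11029 genes (11.9%) were higher and 1599 (14.5%) lower. Against the most advanced cells, 720 of 10376 (6.94%) were higher and 1130 (10.9%) lower. The median log2 ratio over all genes was 0.02 in KO and 0.01 in WT against Stra8 cells and −0.09 and −0.17 against the most advanced cells. Across genes, ln(UMIs per 10000 + 1) in the phase had a Pearson r of 0.980 and 0.978 with Stra8 cells and of 0.985 and 0.976 with the most advanced cells. Genes share cells and depth in these comparisons and are not independent. The counts of list members below are to be read against these shares, and they include Spo11, Prdm9 and Dmc1, whose levels the rule set.

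The cofactors of SPO11 did not share its course. Of 7 break-formation genes, 2 (Spo11, a gene of the rule, and Ankrd31) were higher and 2 lower in the phase than in Stra8 cells, and 3 were higher and 0 lower than in the most advanced cells. Mei4, which helps to load the cutting machinery on the axis, was at 10.1 CPM in KO and 11.2 in WT cells of the phase, against 21.8 and 27.7 in Stra8 cells and 6.14 and 4.78 in the most advanced. Its partner Rec114 was at 46.9 and 44.4, against 78.4 and 72.0 and then 48.3 and 41.9. Iho1 (Ccdc36 in the files), which joins them to the axis, was at 32.2 and 32.1, against 39.0 and 36.8 and then 14.0 and 9.29. Transcripts of all 3 were therefore most frequent in Stra8 cells. Top6bl (Gm960), the subunit that forms the cutting complex with SPO11, followed another order, with 21.1 and 17.4 CPM in the phase, 14.6 and 11.1 before it and 15.9 and 7.26 after it. Ankrd31, a scaffold that binds REC114, was also highest in the phase, at 301 and 294 CPM against 189 and 176 before and 218 and 195 after. These levels are per UMI of a 3-prime assay and compare groups of cells for 1 gene, not genes with each other by transcript length.

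Among 5 hotspot genes with enough UMIs, none passed 1.5-fold against Stra8 cells and 2 were higher than in the most advanced cells, Zcwpw1 and Prdm9, the latter a gene of the rule. Hells, a chromatin remodeller that opens DNA at PRDM9 sites, was at 1295 CPM in KO and 1238 in WT, against 1259 and 1211 in Stra8 cells and 937 and 788 in the most advanced. Morc2b, another gene of the list, had 0 UMIs in the phase in both libraries. At 33004497 and 33006683 UMIs, a count of 0 allows an expected count of up to about 3 UMIs per library, as a 95% bound on the upper side only.

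Of 20 strand-exchange genes, Dmc1 of the rule included, 3 were higher and 2 lower than in Stra8 cells, and 6 were higher and 1 lower than in the most advanced cells. The single-strand binding pair differed in shape. Meiob was at 283 CPM in KO and 281 in WT cells of the phase, 233 and 213 before it and 171 and 130 after it, while Spata22 was at 50.8 and 45.3, 32.1 and 25.2, and 46.8 and 42.2. The partners HOP2 and MND1, which help DMC1 to pair DNA, also parted. Psmc3ip, which encodes HOP2, was at 117 and 106 CPM in the phase, between 75.1 and 67.0 before it and 168 and 162 after it. Mnd1 was at 28.0 and 36.1 in the phase, against 38.2 and 41.9 before and 37.1 and 77.3 after, so its level was lower in the phase than in either neighbouring group in both libraries.

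Other genes of the list went either way from Stra8 cells. Rpa2, a subunit of the general single-strand binding complex, was at 48.8 and 48.5, against 96.2 and 102. Rad54l, a DNA motor of strand exchange, was at 5.91 and 6.76, against 13.0 and 13.9. Brca2, which loads recombinases on DNA, was higher, at 505 and 493 CPM against 359 and 376.7 in Stra8 cells and 388 and 365 in the most advanced. Hsf2bp, which binds BRCA2 in meiosis, was at 171 and 181, against 206 and 210 before and 109 and 106 after.

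Later-acting repair genes followed several courses. Of 16 crossover and mismatch repair genes, 3 were higher and 0 lower than in Stra8 cells, and 2 were higher and 1 lower than in the most advanced. Msh5, part of the clamp that holds crossover intermediates, was at 108 CPM in KO and 114 in WT, against 83.3 and 82.1 before and 60.8 and 47.6 after. Mlh3, the nuclease subunit that resolves crossovers, was at 36.7 and 36.2, between 18.1 and 15.2 before and 55.4 and 62.7 after. Rnf212, a ligase that marks crossover sites, lay between its neighbours in the same way, with 64.9 and 52.6 CPM against 35.6 and 26.5 and then 75.4 and 66.5. Of 14 genes of the damage response, 2 were higher and 0 lower in the phase than in Stra8 cells and 2 were higher and 0 lower than in the most advanced, numbers close to the shares over all genes. Atr, the kinase that senses resected ends, was at 525 and 590 CPM, against 338 and 367 before and 388 and 396 after.

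Genes of the axis and of the synaptonemal complex differed in course within each structure. Rec8, the meiotic cohesin subunit, had only 54 UMIs in KO and 44 in WT cells of the phase, or 1.64 and 1.33 CPM, against 49.7 and 55.6 CPM in Stra8 cells. Rad21l, the other meiotic kleisin, was at 105 and 95.04 CPM, close to the 110 and 96.5 of Stra8 cells, and at 47.6 and 32.2 in the most advanced. Sycp2, an axis core protein, was highest in the phase, at 557 and 574 CPM against 344 and 323 before and 380 and 354 after. Sycp1, which spans the gap between homologs, was at 3572 and 3263 CPM, against 1686 and 1473 before and 3855 and 3701 after. Syce3, in the central element, was at 1558 and 1484, against 715 and 618 and then 1724 and 1527. Syce1 and Syce2, of the same element, did not follow it, with Syce1 at 411 and 417 CPM in the phase, 476 and 463 before and 217 and 173 after. Ccdc79 (Terb1), which ties telomeres to the nuclear envelope, was at 347 and 347 CPM in the phase, against 214 and 205 before and 231 and 214 after. Sycp1, Sycp3 and Smc1b belong to the sum that defined germ cells, so their levels are part of that choice.

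Germ cells of the phase held fewer transcripts of earlier states than Stra8 cells did. Of 10 pluripotency genes tested, 8 were lower than in Stra8 cells and 0 higher, with a median log2 ratio of −1.99 in KO and −1.70 in WT. Dppa5a was at 52.9 CPM in KO and 45.5 in WT, against 314 and 275 in Stra8 cells, and Dppa3, a maternal chromatin factor, at 5.39 and 6.12 against 43.3 and 46.9. Pou5f1 was an exception, at 25.1 and 29.9 CPM in the phase, 23.7 and 25.5 in Stra8 cells and 48.9 and 60.1 in the most advanced cells. Of 8 meiotic entry genes, 4 were lower than in Stra8 cells, and the gene chosen on, Stra8, was 1 of them. Zglp1, an inducer of the oogenic program, was at 10.2 and 10.5 CPM against 44.2 and 47.0, whereas Meiosin (Gm4969), the partner of STRA8, was at 53.5 and 51.4 against 48.2 and 44.0 and at 24.8 and 18.9 in the most advanced cells. None of 11 mitotic cell cycle genes passed 1.5-fold in either direction against Stra8 cells. Top2a, a topoisomerase, was at 562 and 642 CPM in the phase and 305 and 268 in the most advanced cells, while Ccnb2, a B-type cyclin, was at 44.2 and 44.9 and then 116 and 140.

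Few genes were highest in the phase by a clear margin. Of 10246 genes compared with both neighbouring groups, 24 (0.234%) were 1.5-fold or more higher than both in both libraries and 137 (1.34%) lower than both. Ccdc79 (Terb1) was the 1 member of the meiotic lists among the 24 besides Dmc1, which the rule had chosen on. With the genes of the rule left out, 12 genes were named by the smallest of their 4 ratios over both groups in both libraries, without the 1.5-fold limit. Grk4, a kinase of G protein-coupled receptors (chromosome 5, 34660379 to 34755305 in GRCm38), had the most UMIs of them and was at 151 CPM in KO and 154 in WT against 91.6 and 93.0 in Stra8 cells and 95.1 and 79.9 in the most advanced. Gpr137c was at 52.1 and 48.4 CPM against 31.3 and 29.8 and then 32.3 and 23.6. Il4i1, a secreted amino acid oxidase best known from immune cells, was at 16.2 and 16.03 CPM against 7.03 and 6.93 before and 9.35 and 8.57 after. In cells that were not germ cells Il4i1 was at 0.75 and 0.52 CPM.

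Gm20324, annotated as an antisense transcript, had 1746 and 1444 UMIs and was at 52.9 CPM in KO and 43.8 in WT, against 27.8 and 19.9 before and 26.5 and 14.6 after. Six6, a homeobox gene of the developing eye and pituitary, was at 4.12 and 3.88 CPM, against 2.10 and 1.89 and then 2.43 and 1.70. With cells thinned to equal depth, its log2 ratio over Stra8 cells was 0.80 in KO and −1.145 (−2.404 to 0.017) in WT. Over the most advanced cells it was 0.81 in KO and −1.181 (−2.471 to 0.028) in WT, so a peak of Six6 did not hold in WT. Tnfrsf13c, the receptor for the B cell factor BAFF, was at 5.06 and 5.76, against 2.59 and 3.27 and then 3.05 and 1.87. Gm11767, Gm16279, Gm28536, Gm29609, Il1bos and Thbs1 completed the 12, with 47 to 146 UMIs in each library. Thbs1, an extracellular matrix protein, was more frequent in cells that were not germ cells, at 13.4 and 20.98 CPM against 1.58 and 1.79 in the phase, and its ratio over the most advanced cells turned to −0.30 in KO and −0.90 in WT once germ cells with 3 or more UMIs of somatic markers were removed. Gm20324, Gm11767, Gm16279, Gm28536 and Il1bos are antisense to other genes. Use of strand in the counting is not given in the sources used here. Reads of these genes therefore cannot be told apart from those of the partner genes. Six6 also partly overlaps Six6os1 (4930447C04Rik), a synaptonemal complex gene on the opposite strand with 65885 UMIs in KO and 57808 in WT. Reads of Six6 within that overlap cannot be told apart either.

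Among 6 genes lowest in the phase was Arhgdig, at 6.55 CPM in KO and 6.85 in WT against 26.2 and 30.0 in Stra8 cells and 14.6 and 23.6 in the most advanced. C1qbp, a mitochondrial matrix protein, was at 15.0 and 14.2 CPM, against 48.4 and 55.4 before and 35.7 and 44.1 after, and Nxf2, an RNA export factor on the X chromosome, at 11.4 and 7.48, against 29.3 and 19.4 and then 26.8 and 31.9. Dppa4, Rhox2g and the amino acid transporter Slc38a4 were the other 3, all below 3 CPM in the phase. Arhgdig, C1qbp and Slc38a4 were higher in cells that were not germ cells than in any germ group, with C1qbp at 146 and 143 CPM.

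Among genes with 100 or more UMIs in the phase, which leaves out Rec8, the steepest declines from Stra8 cells were those of Rhox5, an X-linked homeobox gene, from 145 CPM in KO and 139 in WT to 5.58 and 4.45, and of Sct, which encodes the hormone secretin, from 49.9 and 54.3 to 2.73 and 2.09. Ccnd1, the G1 cyclin, went from 33.5 and 49.4 CPM to 3.00 and 3.91, and Gchfr, the regulator of GTP cyclohydrolase, from 22.4 and 24.6 to 2.70 and 2.30. Ccdc28b went from 47.9 and 45.3 CPM to 4.82 and 3.58. The steepest gains over Stra8 cells were those of Gm44113, Barx2, Abca14, 4930519G04Rik and Gm11985, of which Gm11985 had the most UMIs, at 12.4 and 23.7 CPM against 1.85 and 3.43. Higher in the phase than in the most advanced cells was Tnip2, an inhibitor of NF-κB signalling, at 34.5 and 36.6 CPM against 8.62 and 8.13. Kank3 was at 32.1 and 37.4 against 8.47 and 7.42. Dcdc2a, a microtubule-binding protein of cilia, was at 4.03 and 4.79 CPM in the phase against 16.3 and 18.5 in the most advanced cells, and Esx1, an X-linked homeobox gene, at 1.39 and 2.36 against 8.31 and 11.3.

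Order within the phase was described by splitting the cells of each library into 3 equal bins by the sum of Ccnb3, Ribc1, Morn5 and Spa17, the sum by which the most advanced cells had been left out. The bins held 932 or 933 cells in KO and 625 or 626 in WT, with median depths of 10580 to 11400 UMIs in KO and 15550 to 17780 in WT. Stra8, Prdm9, Dmc1 and Spo11 took part in choosing the cells, which ties their levels to each other within the phase. Markers of other cell types differed between the bins as well, apart from erythroid markers in WT. Somatic markers summed to 321 CPM in the bottom, 161 in the middle and 99.8 in the top bin of KO. In WT they summed to 153, 94.0 and 88.6. Erythroid markers summed to 2209, 2037 and 252 in KO, where 11 cells held 94.5% of the haemoglobin UMIs of the phase. In WT they summed to 38.5, 36.5 and 36.5. Stra8 went from 50.04 CPM in the bottom bin of KO cells to 45.1 and 35.1 in the middle and top bins, and in WT from 50.5 to 38.8 and 20.3. Prdm9 went from 387 to 356 and 339 CPM in KO and from 369 to 351 and 273 in WT. Spo11 ran the other way, from 113 to 118 and 132 CPM in KO and from 118 to 133 and 170 in WT. Dmc1 was level, at 257, 260 and 256 CPM in KO and 228, 223 and 232 in WT.

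Break-formation genes differed from each other over the same split. The log2 ratio of the top bin over the bottom bin was −0.63 (−0.85 to −0.41) in KO and −0.73 (−0.96 to −0.50) in WT for Iho1 (Ccdc36). For Rec114 it was −0.01 (−0.20 to 0.17) and 0.00 (−0.18 to 0.19), and for Mei4 −0.38 (−0.78 to 0.02) and −1.17 (−1.58 to −0.77). It was −0.25 (−0.33 to −0.18) and −0.40 (−0.47 to −0.32) for Meiob and −0.24 (−0.36 to −0.13) and −0.45 (−0.57 to −0.33) for Msh5. Sycp1 had 0.26 (0.24 to 0.28) and 0.37 (0.35 to 0.39), and Syce3 0.22 (0.19 to 0.26) and 0.21 (0.18 to 0.24). Pou5f1 had the widest span of the genes shown, 0.75 (0.49 to 1.01) in KO and 1.61 (1.35 to 1.88) in WT. The intervals of Pou5f1, Stra8, Prdm9, Spo11 and Sycp1 did not overlap between the libraries. They were not alone in this. Tex101 had −0.06 in KO and −0.31 in WT, and Lars2, with the wider span in KO, −0.22 and −0.06. KO and WT cells were binned at unlike depth, and bins at equal depth were not made, so an effect of depth on these spans was not tested. In an alternative chosen after seeing the data, without the cells that held 3 or more somatic marker UMIs, which brought the somatic sum to between 65.0 and 68.5 CPM in each KO bin and between 47.8 and 53.6 in each WT bin, Pou5f1 had 0.70 and 1.47, Stra8 −0.54 and −1.25, Prdm9 −0.20 and −0.41, Spo11 0.22 and 0.49, and Sycp1 0.20 and 0.35. In that alternative erythroid markers still summed to 2826 CPM in the bottom, 2417 in the middle and 278 in the top bin of KO. The direction of the 5 genes was the same with and without the cells that held 3 or more somatic marker UMIs. Whether these spans differ by genotype was not tested, since each genotype is 1 library.

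**Figure D3:**
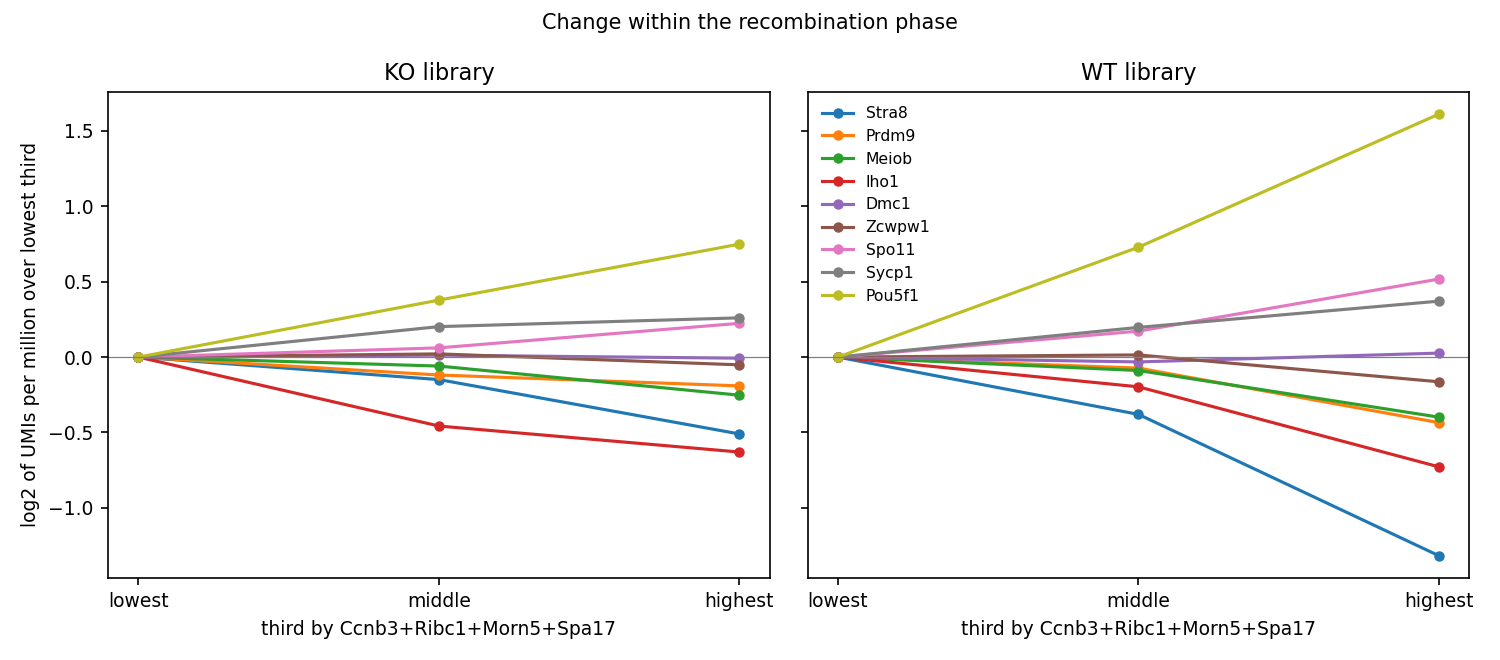
Log2 of UMIs per 1000000 over the lowest bin (vertical axis) in 3 equal bins of recombination-phase cells ordered by the summed level of Ccnb3, Ribc1, Morn5 and Spa17 (horizontal axis), KO on the left and WT on the right, with 1 line per gene. Stra8, Iho1, Prdm9 and Meiob decline, Dmc1 is level, and Spo11, Sycp1 and Pou5f1 increase in both libraries.

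Between genotypes, Nr3c1 was examined first as the targeted gene. Its GRCm38 span on chromosome 18 runs from 39410545 to 39519421. The KO cells of the phase held 439 Nr3c1 UMIs, a level of 13.3 CPM with bounds of 12.1 and 14.6. The WT cells held 2493, a level of 75.5 CPM with bounds of 72.6 and 78.6. The log2 ratio of KO over WT was thus −2.51 (−2.66 to −2.36). In WT it was at 82.1 CPM in Stra8 cells, 63.0 in the most advanced cells, 65.8 in the remaining germ cells and 27.1 in cells that were not germ cells. The receptor transcript was therefore present throughout the phase, below Stra8 cells and above the later cells. KO levels were 13.4, 8.93, 9.14 and 7.17 CPM in the same groups. A transcript that has lost exon 3 still counts for the gene in a 3-prime assay, so the KO level does not measure functional receptor.

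Few other genes passed the size limit set between the libraries. The size limit was a difference of 0.25 or more in ln(UMIs per 10000 + 1). It was passed by 19 of 10987 genes (0.173%), 11 (0.1%) higher and 8 (0.0728%) lower in KO. A gene low in both libraries cannot pass it whatever its ratio. Examples are Gm11985, with a log2 ratio of −0.94, and Wnt6, a somatic marker, with 1.36. With mitochondrial, ribosomal protein and haemoglobin genes left out of the totals and of the count, 7 were higher and 8 lower. Over all 10987 genes the median log2 ratio was 0.00, 95% of ratios lay between −0.44 and 0.70, and the Pearson r of ln(UMIs per 10000 + 1) across genes was 0.997. A minimum of 20 UMIs in place of 100 left the count at 19. At these totals a gene with fewer than 100 UMIs cannot reach 0.25, so that count could not change. A limit of 0.5 left 4 genes, Hba-a1, Hbb-bs, Hbb-bt and Hbb-y. With the sum of Dmc1, Prdm9 and Spo11 required to be 10 or more, 32 genes passed, 13 of which were among the 19.

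**Figure D4:**
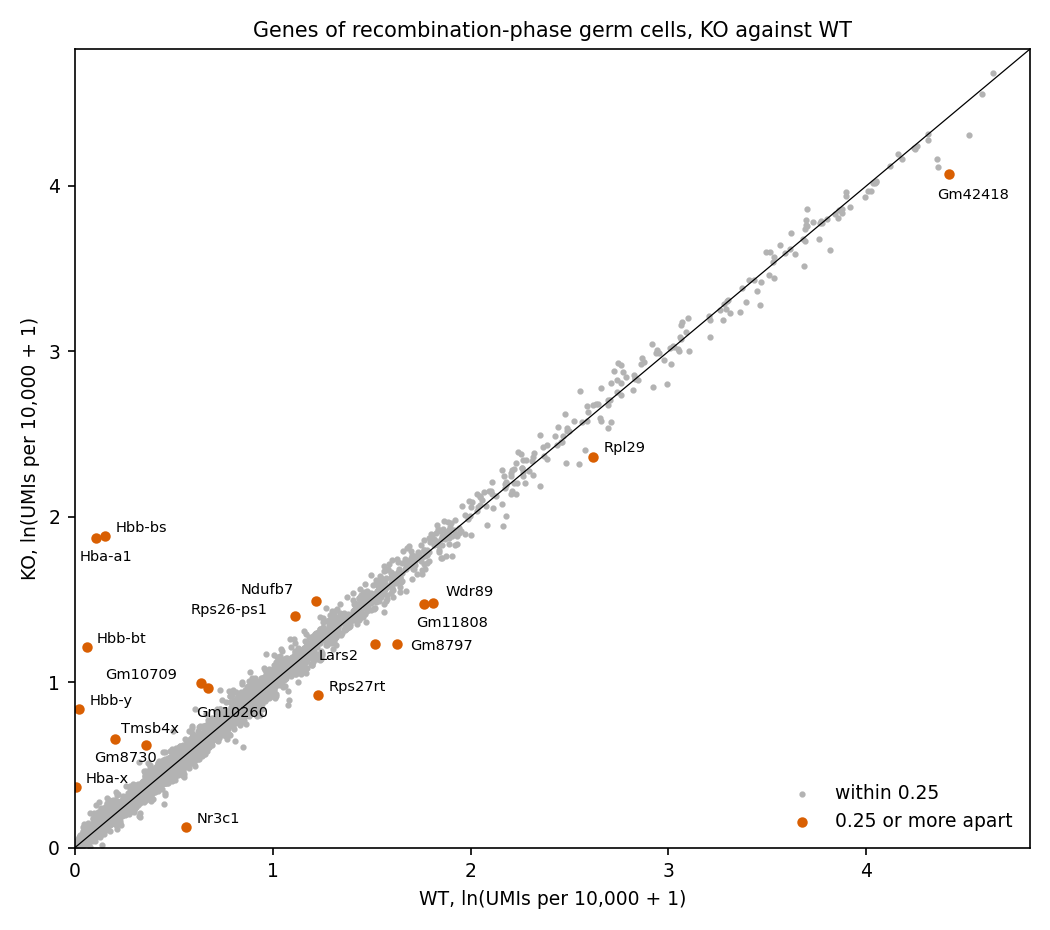
ln(UMIs per 10000 + 1) of each gene in recombination-phase cells of the WT library (horizontal axis) against the KO library (vertical axis), 1 point per gene, with the line of equality. The 19 genes that differ by 0.25 or more are orange and named. Nr3c1 lies below the line, the haemoglobin genes stand at the left edge, and nearly all other genes lie along the line.

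The 5 highest ratios were those of haemoglobin genes. Hba-x had a log2 ratio of 6.71, Hbb-y of 5.90, Hba-a1 of 5.59, Hbb-bt of 5.24 and Hbb-bs of 5.08. Hba-a1 was at 551 CPM in KO and 11.5 in WT. Most UMIs of these genes in KO sat in few cells, since 11 of the 2797 KO cells held 47590 of 50360 haemoglobin UMIs (94.5%). The highest WT cell held 5. A haemoglobin UMI was nevertheless found in 60.7% of KO and 46.3% of WT cells of the phase. With germ cells of 20 or more haemoglobin UMIs removed, an alternative chosen after seeing the data, Hba-a1 had a log2 ratio of 1.29 (1.11 to 1.46) and Hba-x of 0.95 (−0.03 to 2.00), and 14 genes passed the limit, all of them among the 19. Erythroid markers summed to 1482 CPM in KO and 37.1 in WT cells of the phase and to 28810 and 28390 in cells that were not germ cells.

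Tmsb4x, a binder of actin monomers, was at 85.7 CPM in KO and 43.2 in WT, a log2 ratio of 0.99 (0.90 to 1.08), and at 3219 and 3517 CPM in cells that were not germ cells. In KO, 61.0% of its UMIs lay in 83 cells with 20 or more UMIs of somatic markers, and in WT 39.4% lay in 22 such cells. All 37 somatic markers summed to 191 CPM in KO and 111 in WT, against 4906 and 4869 in cells that were not germ cells, and 36 of the 37 were detected in WT. Kcnj8, a marker of perivascular cells, was at 0 there. Scrublet called 5.83% of KO and 3.15% of WT cells of the phase doublets. The Tmsb4x ratio became 0.41 (0.25 to 0.58) without germ cells that had 3 or more somatic marker UMIs and 0.59 (0.45 to 0.72) without called doublets, and it no longer passed the limit in either case.

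Ribosomal protein genes, their copies and other short or pseudogene entries made up most of the other genes past the limit. Gm8730, a processed pseudogene, had 3058 UMIs in KO and 739 in WT and a log2 ratio of 2.05 (1.93 to 2.17), and Gm10709, another, 0.93 (0.87 to 1.00). Gm10260 had 0.75 and Rps26-ps1 0.58. Rps27rt had −0.68, Rpl29, a protein of the large ribosomal subunit, −0.41, Gm11808 −0.53 and Gm8797 −0.76. Gm8797 and Gm11808 are short genes annotated as protein coding. Reads of such genes can be shared with near-identical copies, and how they were assigned is not given in the sources used here, so these values are uncertain. Ndufb7, a subunit of respiratory complex I, had 0.54 (0.49 to 0.58), Wdr89 −0.59 (−0.62 to −0.55), the mitochondrial leucyl-tRNA synthetase Lars2 −0.55 (−0.59 to −0.51), and the noncoding Gm42418 −0.51 (−0.52 to −0.50). In Stra8 cells Ndufb7 had 0.26 and in the most advanced cells 0.82, while Lars2 had −0.66 and −0.63 and Wdr89 −0.56 and −0.55. Their direction was therefore shared by all 3 groups of germ cells in these libraries. In cells that were not germ cells Lars2 had −0.44 and Wdr89 −0.49, while Ndufb7 had −0.02.

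No gene of the recombination lists passed the size limit between KO and WT, which at 0.173% of all genes says little of lists of this length. With the genes of the rule left out, 29 genes for break formation, hotspot choice and strand exchange had a median log2 ratio of 0.01, 18 of them above 0, beside a median of 0.00 over all genes. Brca2 had 0.03 (0.00 to 0.06), Meiob 0.01 (−0.03 to 0.06), Zcwpw1 0.02 (0.00 to 0.04), Ankrd31 0.03 (−0.01 to 0.07) and Hells 0.06 (0.05 to 0.08). The widest were Mnd1 at −0.37 (−0.49 to −0.24), Mei1, a factor needed for break formation, at −0.28 (−0.40 to −0.17) and Top6bl (Gm960) at 0.27 (0.11 to 0.44). These intervals do not hold 0 as counting error goes, but no second library shows how far such genes differ between pools of 1 genotype.

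Among the 3 genes that chose the cells, Dmc1 had a log2 ratio of KO over WT of 0.18 (0.14 to 0.23), Prdm9 of 0.13 (0.09 to 0.16) and Spo11 of −0.22 (−0.28 to −0.16). In the other germ groups, levels in KO and WT stood in the same order, with Dmc1 at 106 and 99.7 CPM and Spo11 at 72.7 and 95.3 CPM in the remaining germ cells. Each of these ratios was below the size limit.

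**Figure D5:**
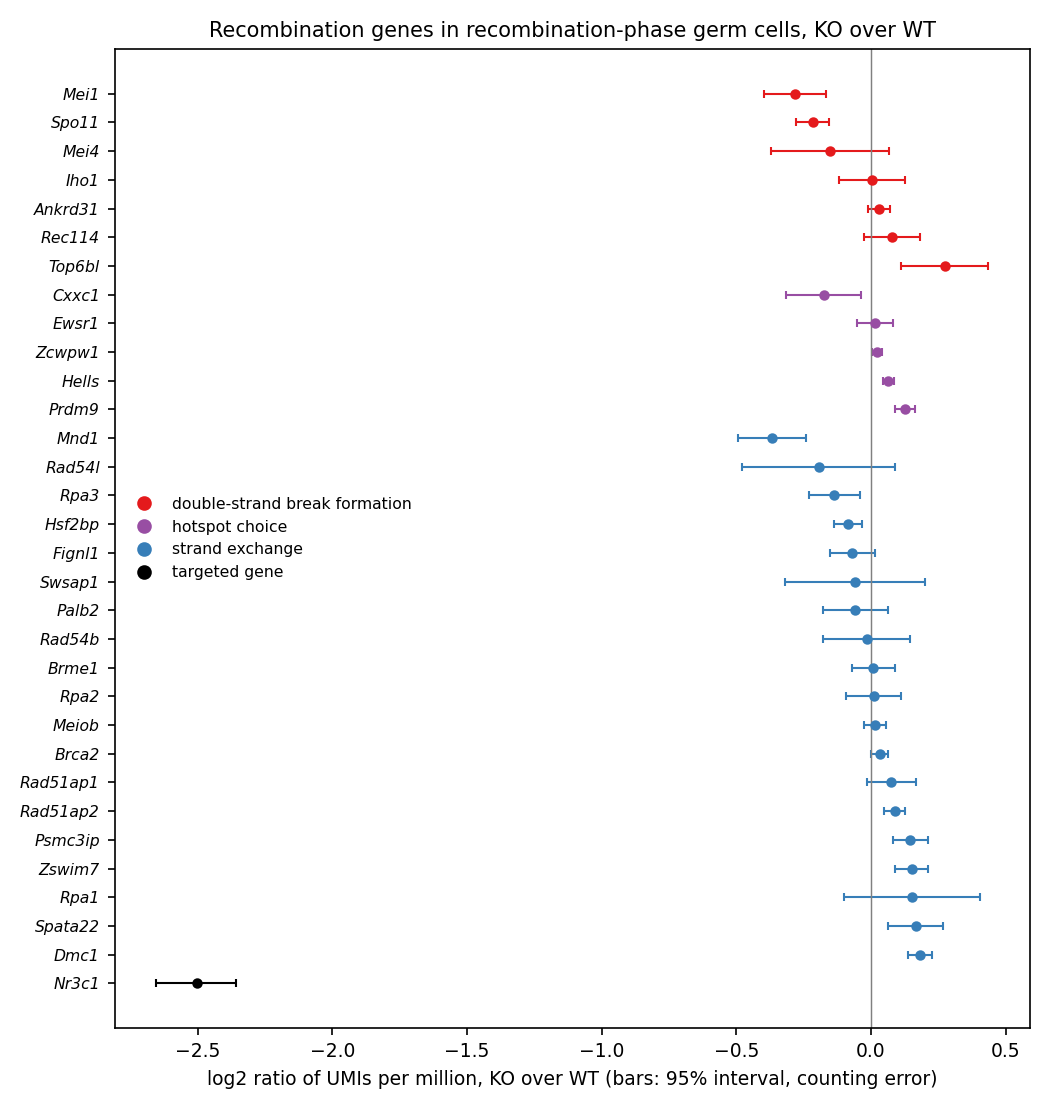
Log2 ratio of UMIs per 1000000, KO over WT (horizontal axis), of genes for break formation, hotspot choice and strand exchange in recombination-phase cells, with Nr3c1 for comparison. Points are 1 library against 1 library and bars are exact 95% intervals for counts. Recombination genes lie between −0.37 and 0.27, and Nr3c1 at −2.51.

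None of the members of the other meiotic lists passed the limit in either direction, and for these lists too the share over all genes leaves few to be found. The median log2 ratio was −0.05 over 16 crossover genes, 0.12 over 10 axis genes, 0.04 over 6 genes of the synaptonemal complex centre, 0.01 over 4 telomere attachment genes and −0.02 over 14 damage response genes. Sycp3 had 0.16 (0.15 to 0.17), Smc3 −0.20 (−0.23 to −0.17), Rnf212 0.30 (0.21 to 0.40) and Hfm1, a crossover helicase, −0.17 (−0.21 to −0.12).

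Genes known to respond to glucocorticoids were also examined, because the receptor is known to drive them in other tissues. Of 10 listed, 8 had 100 or more UMIs, and their median log2 ratio was −0.03 with 3 above 0. None passed the size limit, beside 0.173% of all genes. Fkbp5, Ddit4, Dusp1, Klf9 and Sgk1 were too low in WT to fall past it even if absent from KO. The limit therefore cannot show a loss of these genes. Tsc22d3, a leucine zipper protein induced by glucocorticoids, was at 195 CPM in KO and 206 in WT, a log2 ratio of −0.08 (−0.13 to −0.03). Fkbp5, a chaperone of the receptor, was at 26.9 and 27.7, a ratio of −0.04 (−0.17 to 0.09). Cdkn1c, a CDK inhibitor, was at 152 and 122 CPM, a ratio of 0.32 (0.26 to 0.38), and Dusp1, a MAP kinase phosphatase, had 103 and 66 UMIs and a ratio of 0.64 (0.18 to 1.11). Both genes were higher in cells that were not germ cells, Cdkn1c at 1820 and 1856 CPM and Dusp1 at 63.8 and 67.3, and somatic markers summed to 191 CPM in KO and 111 in WT. Without cells holding 3 or more somatic marker UMIs, an alternative chosen after seeing the data, Cdkn1c had 0.12 (0.04 to 0.19) and Dusp1 0.40 (−0.28 to 1.09). Zbtb16 had 2 UMIs in each library, too few for a difference to be detectable at this depth.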

How the data were processed

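Single cell RNA sequencing (3-prime droplet chemistry) was analysed for 1 KO and 1 WT library of E15.5 ovaries. The deposited values were UMI counts per gene and barcode, made by the authors with Cell Ranger (3.0.2 per the file headers). The submitters' processing notes also name mm10 and Seurat 3.2.3. The gene annotation, cell calling settings and handling of multi-mapped reads are not given in the sources used here. Of 27998 gene identifiers, 27645 (98.7%) were matched to GENCODE M21 on GRCm38 for positions and gene types.

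The rule, gene lists and limits were chosen with earlier results of these data known. Counts were summed over the cells of a group and given per 1000000 UMIs. Log2 ratios and shares carry exact Clopper-Pearson intervals and levels exact Poisson intervals, at 95%. Since cells are not replicates and each genotype is 1 library, no test was run and no p-value is given. Genotypes were compared by the difference in ln(UMIs per 10000 + 1), with a limit of 0.25 among genes with 100 or more UMIs, and groups of germ cells by 1.5-fold in both libraries. The summing and ratio steps were checked on simulated counts with known folds.

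Named genes were those of the fixed lists, those past the size limit (the 8 highest and 8 lowest), the 12 with the highest smallest ratio over both neighbouring groups (0.5 UMI added), the 6 with the lowest largest ratio, and the 5 highest and 5 lowest against each neighbouring group. Ndufb7, Gm10260, Rps26-ps1 and Ccdc79 (as a peak gene) were named after their values were seen. Zcwpw2, Terb2 and Majin were not analysed here, and 1 gene of the strand exchange list is counted but not reported here. Doublets were kept and Scrublet calls (scanpy 1.11.5, expected rate 8%) removed as an alternative. Analyses used Python 3.11, numpy 2.4.6, scipy 1.17.1, pandas 2.3.3 and matplotlib 3.10.9.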

Additional observations from a re-analysis of the deposited data

Results flagged for a closer look

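In 7 of the listed or named genes the ratio of recombination-phase cells to a neighbouring group pointed in opposite directions in the 2 libraries, with each counting interval clear of 0. Genes such as Rec114, whose intervals held 0, were not taken. The difference between the libraries was not tested, because each genotype is 1 library. All values are log2 ratios of UMIs per 1000000.

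Over Stra8 cells, the crossover gene Tex11 had −0.057 in KO and 0.15 in WT, and Tdrkh, a Tudor protein of the piRNA pathway, −0.069 and 0.053. The processed pseudogene Gm10709 had 0.091 in KO and −0.080 in WT over Stra8 cells, and −0.19 and 0.28 over the most advanced cells. Gm8730, another processed pseudogene, had 0.15 and −0.38 over the most advanced cells.

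Haemoglobin genes made up the rest. Hba-a1 had 0.11 in KO and −4.19 in WT over Stra8 cells, and 4.19 and −0.24 over the most advanced cells. Hbb-bt had 0.046 and −3.62 over Stra8 cells, and Hbb-bs 3.78 and −0.30 over the most advanced cells. In KO, 11 cells of the phase held 94.5% of its haemoglobin UMIs, and in WT no cell of the phase held more than 5.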

How the results depend on the processing

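No paired analysis was possible because each group holds 1 library. Depth, the rule and cells with foreign transcripts set the values most. The share of germ cells in the phase became 22.9% in KO and 22.9% in WT with cells thinned to 3000 UMIs, 3.20% and 1.92% with the recombination sum at 10 or more, 23.1% and 24.2% with 4000 advanced cells left out, 26.1% in KO without called doublets, and 27.2% and 28.1% without germ cells holding 3 or more somatic marker UMIs. The count of 19 genes between the genotypes became 32 with the sum at 10 or more and 4 with a size limit of 0.5, and lay between 14 and 21 otherwise. Nr3c1 became −2.71 with the sum at 10 or more.

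The log2 ratio of Zcwpw1 over other germ cells became 0.34 in KO and 0.39 in WT when thinned, 0.59 and 0.70 with the sum at 10 or more, 0.41 and 0.56 without somatic marker cells, 0.48 and 0.61 with totals free of mitochondrial, ribosomal protein and haemoglobin genes, 0.46 and 0.61 as a mean over cells, and 0.45 in KO without doublets. Tex101 became 0.19 and 0.27, 0.35 and 0.53, 0.32 and 0.49, 0.38 and 0.55, 0.35 and 0.54, and 0.36 in the same order. The median of the recombination lists, 0.01, lay between −0.02 and 0.03. The cause of these moves was not tested.

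Direction turned in these cases. When thinned, Thbs1 over Stra8 cells became −0.089 in KO and −0.56 in WT, Gm29609 −0.73 and Six6 −1.15 in WT, and over the most advanced cells Tnfrsf13c became −0.13 in KO, and Gm16279 −0.42, Gm29609 −1.42, Six6 −1.18 and Thbs1 −0.83 in WT. With the sum at 10 or more, Hba-x of KO over WT became −0.27, and Thbs1 became −0.16 and −0.31 over Stra8 cells and −0.066 and −0.25 over the most advanced cells. Without somatic marker cells Thbs1 became −0.30 and −0.90 over the most advanced cells. Of 154 other values of genes between the genotypes 101 stayed within their counting interval and 52 moved, and of 431 of the peak genes 360 stayed and 56 moved.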

Other observations

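Early oocyte and piRNA genes were measured beside the recombination genes. Of 9 early oocyte genes with enough UMIs, 1 was 1.5-fold or more higher and 3 were lower in the phase than in Stra8 cells, and 2 were lower than in the most advanced cells (11.9%, 14.5% and 10.9% over all genes). Figla, which drives oocyte genes such as those of the zona pellucida, was at 223 CPM in KO and 205 in WT, against 198 and 186 before and 151 and 143 after. Lhx8, an oocyte homeobox gene, was at 6.61 and 6.94, against 3.20 and 3.27 before and 8.73 and 14.8 after. Sohlh1, a factor of primordial follicles, had 12 UMIs in KO and 43 in WT cells of the phase, or 0.36 and 1.30 CPM, against 4.13 and 18.3 in the most advanced cells.

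Of 13 genes of the piRNA pathway, 5 were lower in the phase than in the most advanced cells and 0 higher, beside 10.9% lower and 6.94% higher over all genes. Asz1, which anchors piRNA processing at mitochondria, was at 69.6 and 56.0 CPM against 109 and 107, and Tdrd5, a Tudor protein, at 13.9 and 14.7 against 24.3 and 29.8. Gtsf1, a cofactor of PIWI proteins, was at 78.9 CPM in KO and 56.4 in WT, a log2 ratio of 0.48 (0.40 to 0.57), within the size limit. Psma8, the testis-type proteasome subunit, had 322 and 219 UMIs and a ratio of 0.56 (0.30 to 0.81).

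Genes of the X chromosome gave 3.88% of autosomal and X UMIs in the phase in KO and 3.78% in WT. The share was 4.12% and 4.08% in Stra8 cells, 3.97% and 3.82% in the most advanced cells and 3.58% and 3.59% in cells that were not germ cells.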
